A study of Homo sapiens with 11 samples.

Results

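PC-3 cells, an epithelial line from a human prostate cancer, were transfected with a synthetic duplex of miR-520f, and their mRNA levels at 24 h were compared with those of mock-transfected cells that received the reagent without any duplex. Both arrays, miR-520f sample 6 and mock sample 8, lay on the slide of set 2, and each held 150 ng of RNA mixed from 4 independent transfections. All groups shared the same line, RPMI-1640 medium and serum, and carried no other treatment. In the title of the miR-520f array the duplex is spelled miR-530f, whereas its source, description and transfection fields give miR-520f, so it is called miR-520f here. Of the 41000 probes on the array, 27892 stood well above background on miR-520f sample 6, on mock sample 8 or on both, and make up the data described. For 21462 of these, standing for 10797 named genes, the authors' normalized log2 table has a value, and the log2 difference of miR-520f minus mock is taken from it.

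The comparison is of 1 array with 1 array, so that it carries no test and no spread between transfections. As a yardstick, 3 further mock arrays were used, sample 1 of set 1 and samples 9 and 11 of set 3. Levels on the 5 arrays are given as log2 signal minus the 75th percentile of that array, because the normalized table is comparable within a set alone. A probe is called lower, or higher, when its difference was at least 2-fold and the miR-520f array also lay below, or above, all 4 mock arrays. Levels of different probes are not comparable with each other. The other duplexes of the series were dsEcad-640, a designed duplex directed at the E-cadherin promoter whose seed is that of miR-373, and the microRNAs miR-520c, miR-373, miR-372 and miR-302a, and they are used where they show how miR-520f differed.

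A microRNA guides an Argonaute protein to mRNAs that pair with its seed, the bases 2 to 8 from its 5′ end, and the paired mRNAs are as a rule degraded or translated less. The family of miR-302a, miR-372 and miR-520c is known from embryonic stem cells and placenta, and several of its members lie in a cluster on chromosome 19 that is found in primates. The mature strands are shown because the position of a shared run of letters sets miR-520f apart from its relatives. They were taken from RefSeq (GRCh38.p14), and the capitals mark the seed.
hsa-miR-520f-3p: aAGUGCUUccuuuuagaggguu
hsa-miR-520c-3p: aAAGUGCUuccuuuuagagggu
hsa-miR-372-3p: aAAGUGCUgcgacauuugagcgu
hsa-miR-373-3p: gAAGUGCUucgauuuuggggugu
hsa-miR-302a-3p: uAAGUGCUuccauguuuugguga
The mature strand of miR-520f-3p lies at chr19:53682213-53682234 on the plus strand and that of miR-520c-3p at chr19:53707506-53707527. The run AAGUGCU occupied bases 1 to 7 of miR-520f and bases 2 to 8 of the 4 others. The seed of miR-520f, AGUGCUU, pairs with AAGCACU, while the seed AAGUGCU of the others pairs with AGCACUU. Transcript sequences were not analysed here, so no mRNA is assigned a site.

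On the miR-520f array 54.3% of the probes were well above background, and on mock sample 8 67.0% were. No spot of either array was saturated, and 209 and 67 spots carried an outlier mark. The epithelial keratins KRT8, KRT18 and KRT19 and the adhesion molecule EPCAM were well above background on all 5 arrays, and the leukocyte marker PTPRC was on none of the 5. The 3 probes named for KLK3, the gene of prostate-specific antigen, disagreed, since 1 was bright on all 5 arrays and another was well above background on 0.

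Against mock sample 8, 247 of 21462 probes (1.15%) were at least 2-fold lower with miR-520f and 312 (1.45%) were at least 2-fold higher. With the requirement to lie beyond all 4 mock arrays, 233 probes were called lower (1.09%) and 291 higher (1.36%). Over the same 21462 probes, the scanner signal with normexp background correction gave 92 lower and 101 higher. The 233 and 291 called probes included 157 and 175 named genes, and 60 and 103 of the probes had no gene name here. Between mock samples 9 and 11, which received the same treatment and shared a slide, 308 of 21385 probes (1.44%) differed at least 2-fold, compared with 559 (2.60%) for miR-520f and mock sample 8. The difference had an SD of 0.40 over all probes for miR-520f and 0.35 for the mock pair, and its median was -0.03 for miR-520f. When mock sample 9 or mock sample 11 was treated like the miR-520f array, 0.758% and 1.28% of the probes lay 2-fold off its slide partner and beyond the other mock arrays, against 2.44% for miR-520f. Differences of 2-fold in single genes are to be read beside these shares, since mock arrays gave them as well.

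**Figure D1:**
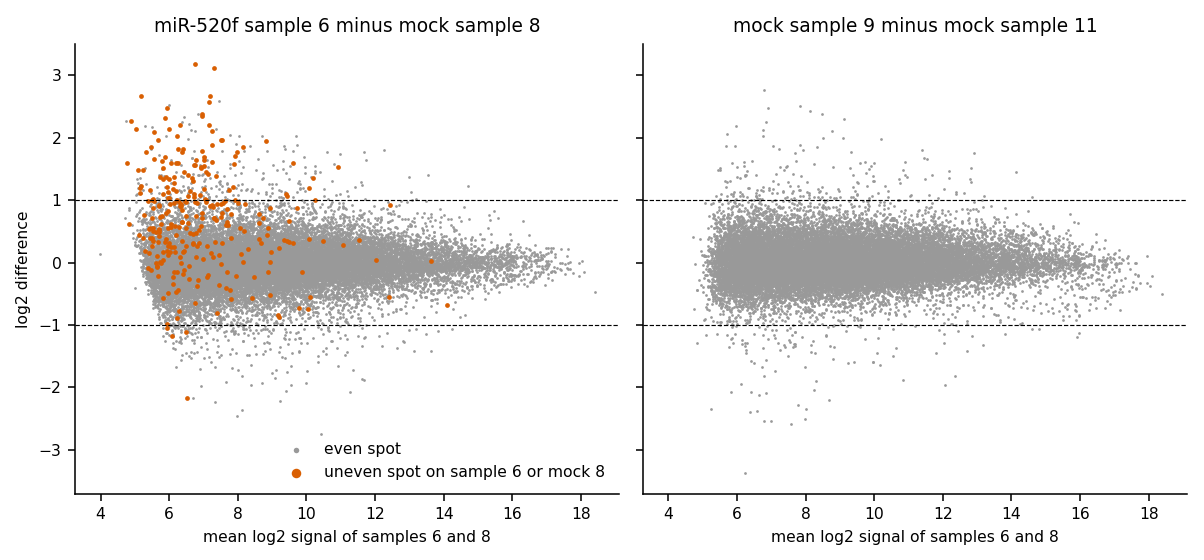
Log2 difference of each probe (vertical axis) against its mean log2 signal on samples 6 and 8 (horizontal axis, in both panels), for miR-520f minus mock sample 8 (left) and for mock sample 9 minus mock sample 11 (right). Dashed lines mark 2-fold, and orange points are probes whose spot was uneven on either set 2 array. Most uneven spots lie at low signal and above 0, and the mock pair spreads nearly as widely as the grey points on the left.

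The larger differences depended on the signal. In probes with a mean log2 signal under 6, the SD was 0.49 for miR-520f and 0.42 for the mock pair, and in probes of 12 or more it was 0.27 and 0.29. The share called higher went down from 3.72% below 6 to 0.196% from 12 upwards. The share called lower was 0.496% below 6, 1.52% between 6 and 8, and 0.425% from 12 upwards.

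Many of the higher probes had spots of uneven brightness. A spot was named uneven when its pixels had an SD of over 25% of the mean signal on miR-520f sample 6 or mock sample 8. Of all 21462 probes 290 (1.35%) were uneven, and of those called lower 2 of 233 (0.858%) were, but of those called higher 90 of 291 (30.9%) were. On the miR-520f array 1.25% of the probes exceeded that limit, on miR-373 of the same slide 0.951%, and on mock sample 8 0.116%, while the arrays of set 3 had 2.03% to 3.11%. The array area was divided into 60 blocks. The 10 blocks with the most uneven spots held 17.0% of the probes and 45.5% of the uneven spots, a share that this choice favours. They also held 32.5% of the higher probes and 15.4% of the lower ones. Over the 21172 probes with even spots, 231 (1.09%) were called lower and 201 (0.949%) higher. The part of uneven spots in the other higher values was not tested.

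**Figure D2:**
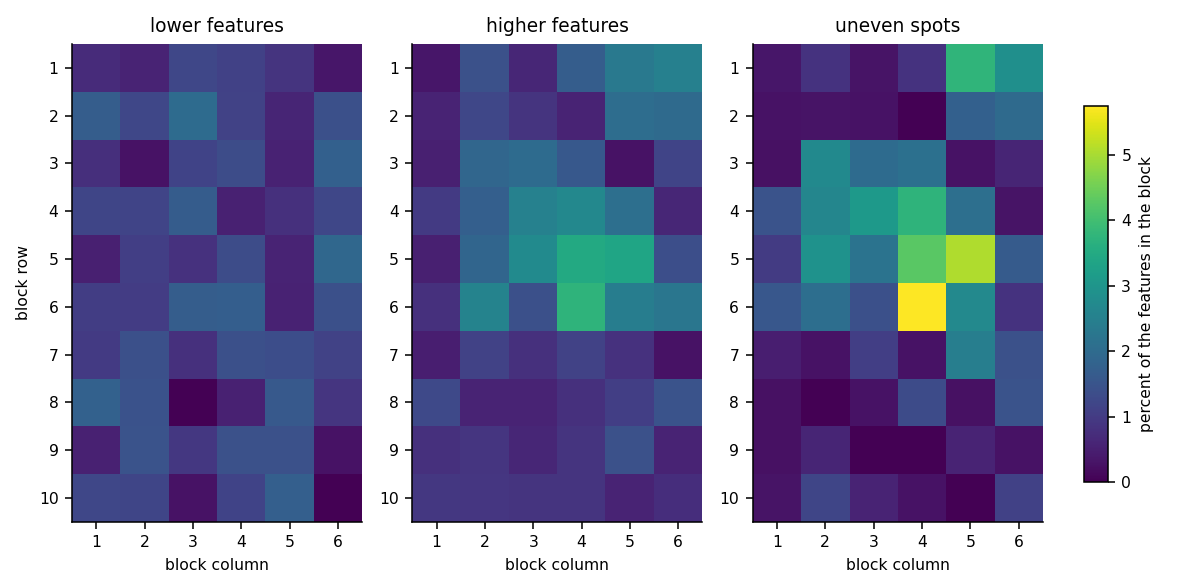
Share of the probes (features) in each of 60 blocks of the array, in percent by colour, that were called lower (left), called higher (middle) or had uneven spots (right); block rows run down and block columns run across the array area. The higher probes and the uneven spots gather in the middle rows and the upper right, up to 3.74% and 5.75% of a block, whereas the lower probes, up to 2.02% of a block, are highest elsewhere.

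The genes with the largest lower differences act in membrane traffic, surface glycosylation, proteolysis, nutrient sensing and the actin skeleton. TMEM14A, which encodes a small membrane protein, had the largest one, and its probe lies at chr6:52656858-52656917 of hg18. It measured 0.07 on the miR-520f array and 2.70, 2.78, 3.49 and 3.32 on mock samples 1, 8, 9 and 11, a difference of -2.74 from mock sample 8 (6.68-fold lower). It was thus 2.64 below the lowest mock array, in a gene whose mock arrays differed by less than 1. GALNT3, an enzyme that begins mucin-type O-glycosylation, measured -2.26 against 0.16, 0.20, 0.61 and 1.00, a difference of -2.45. A further GALNT3 probe showed -0.50 and lay within the mock range, so the size of the difference was not the same on both probes. ADAM9, a membrane-bound metalloprotease, measured -2.05 against 0.36, 0.31, 0.56 and 0.39, a difference of -2.36. SAMTOR, a sensor of S-adenosylmethionine upstream of mTORC1, measured -2.80 against -0.87, -0.55, -0.26 and -0.52, a difference of -2.22. For TMEM14A, ADAM9, SAMTOR and the GALNT3 probe with -2.45, the miR-520f array was well separated from the mock arrays of all 3 slides.

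Of the next genes, ZDHHC24, SLC25A23 and CFL2 had mock arrays that lay close together. ZDHHC24, of the palmitoyltransferase family, measured -0.87 against 1.31, 1.33, 1.36 and 1.56, a difference of -2.22, and its further probe showed -1.25. SLC25A23, a carrier of ATP and phosphate in mitochondria, measured -0.62 against 1.35, 1.41, 1.44 and 1.26, a difference of -2.05, with -1.96 and -0.37 on its further probes. CFL2, a cofilin that severs actin filaments, measured 0.06 against 1.96, 1.95, 1.98 and 2.13, a difference of -1.92, and its further probe showed -1.72. ABLIM3, an actin-binding LIM protein, had 1.25 against 3.33, 3.29, 3.87 and 3.17, a difference of -2.08, and -0.62 on its further probe. For CFL2 and ZDHHC24 both probes were thus more than 2-fold lower, for ABLIM3 1 of both. CYB5R4, a cytochrome b5 reductase, and VAMP3, a SNARE protein of recycling endosomes, had differences of -1.98 and -1.96. VAMP3 measured -1.59 against 0.37, 0.37, 0.66 and 0.86. NPR2, the receptor of C-type natriuretic peptide, is also among the 12 largest with -2.17, but this value rests on mock sample 8. Its spot on mock sample 8 was uneven, with a pixel SD of 42.3% of the mean signal, and measured -1.38, whereas the other mock arrays had -2.98, -3.37 and -3.52 and the miR-520f array -3.61.

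Among the genes with the largest higher differences, a receptor and several transcription factors had even spots. ACVR2B, a type II receptor of activin, measured -0.22 against -2.87, -2.82, -2.08 and -1.97, a difference of 2.59 (6.03-fold higher). Its further probes showed 1.54 and 1.56, so all 3 were more than 2-fold higher. EGR2, a zinc finger factor induced early after growth stimuli, measured -1.74 against -4.33, -4.20, -3.37 and -3.61, a difference of 2.53. MKX, a homeobox factor known from tendon, measured -3.16 against -4.33, -5.15, -5.06 and -4.38, a difference of 2.27, with 1.20 on its further probe. SERPINB3, a serine protease inhibitor of squamous epithelium, had a difference of 2.24, and SERPINB4 one of 2.03. These neighbouring genes are close copies, and cross-hybridization between them cannot be told apart. The mock arrays of EGR2 and MKX spanned nearly 1 on the log2 scale, and miR-520f lay above that span by 1.62 and 1.17. After normexp correction their differences were 0.92 and 0.49 and thus under 2-fold.

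The other 8 of the 12 largest higher differences were all measured on uneven spots of the miR-520f array. INSL3, a hormone of Leydig cells, measured -0.65 against -3.31, -3.80, -3.36 and -3.33, a difference of 3.17, on a spot with a pixel SD of 47.9% of its mean signal, while its further probe showed -0.74. SP140, a nuclear body protein of leukocytes, had 2.57 with -0.34 on its further probe, and TSPAN33, a tetraspanin, had 2.31 with -0.23. For these 3 genes the probe with the uneven spot and the further probe had opposite signs. The phosphatase gene PPM1J (2.66), IQCN (2.38), the fucosyltransferase gene FUT4 (2.35), the F-box gene FBXL8 (2.21) and ASS1 (2.20), the gene of argininosuccinate synthase, have no further probe that could be compared. Under 4 duplexes read against other mock arrays than sample 8, the differences of INSL3, PPM1J, SP140 and IQCN ranged from -0.46 to 0.17. Those of the other 4 genes ranged from -0.55 for FBXL8 to 0.71 for TSPAN33.

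When probes with uneven spots were left out, 8 more genes followed, of which 7 are described here. TRIB2, a pseudokinase of the Tribbles family, measured 0.07 against -2.08, -1.97, -1.69 and -1.99, a difference of 2.02. ANKRD46, a protein with ankyrin repeats, measured 1.75 against -0.40, -0.31, 0.45 and 0.68, a difference of 2.03. HIC2, a transcriptional repressor, had 2.02 and 0.21 on its further probe, and DLX2, a homeobox factor of the forebrain, had 2.18 and 1.61. AKR1B10, an aldo-keto reductase, PRSS35, a protein related to serine proteases, and PBX2, a homeobox factor, had 2.16, 2.11 and 2.05, and the further probe of PBX2 had 0.62. On all of these the miR-520f array stood above the 4 mock arrays, by 0.66 for DLX2 to 2.02 for PBX2.

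**Figure D3:**
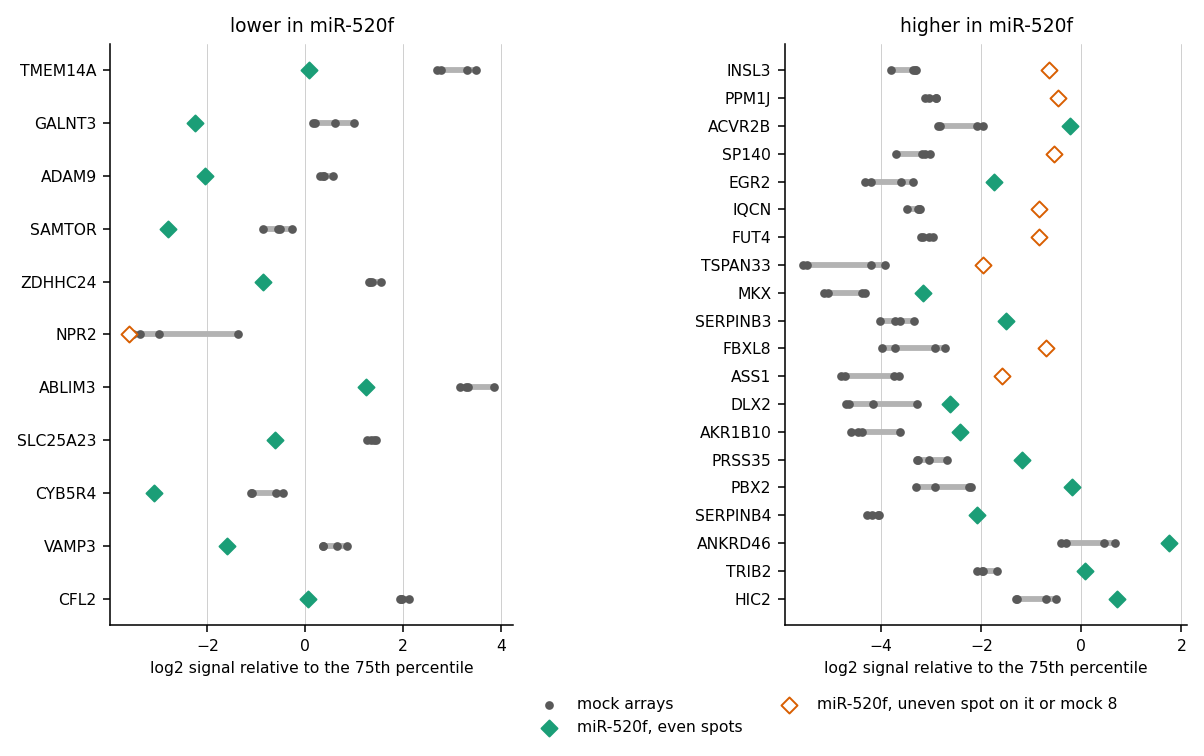
Level of each named gene as log2 signal minus its array's 75th percentile (horizontal axis), for 11 of the 12 genes with the largest lower differences (left) and for the 12 with the largest higher differences followed by the 8 next ones with even spots (right). Grey points are the 4 mock arrays and grey bars their range, filled diamonds are miR-520f with even spots, and open diamonds are genes with an uneven spot on the miR-520f array or mock sample 8. 8 of the 12 genes at the top right have uneven spots, and on the left NPR2 lies next to the mock arrays 9 and 11.

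Gene lists were read at 1 probe per gene, the brightest one on both set 2 arrays, and by a smaller step of 0.5 on the log2 scale beyond all 4 mock arrays. Over all 10797 genes, 682 (6.32%) were lower and 584 (5.41%) higher by this step, the median difference was -0.01, and at the 2-fold step 135 (1.25%) were lower and 142 (1.32%) higher. Uneven spots played little part in these lists, which held 0 or 1 such gene each.

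Of the reported targets of the family, 19 of 21 genes were measured, and 6 (31.6%) were lower and 0 higher, with a median of -0.30. MBD2, which binds methylated DNA, measured 1.73 against 3.60, 3.54, 3.96 and 3.85, a difference of -1.87. TGFBR2, the type II receptor of TGF-beta, measured 1.93 against 3.07, 3.09, 3.46 and 3.38, a difference of -1.18 with -0.80 on its further probe, and TNFAIP1, an adaptor of a ubiquitin ligase, had -1.15. The miR-520f array lay below all mock arrays in these genes. DAZAP2, a partner of the RNA-binding protein DAZ, had -0.93, the growth inhibitor BTG1 -0.52 and the Hippo kinase LATS2 -0.50. Further down, MICA, KLF13, RHOC and RBL2 had -0.44 to -0.30 and also lay below the mock arrays. CDKN1A, CD44, CDK2, MBNL2, NR2F2 and TXNIP lay within the mock range with -0.08 to 0.28, and KDM1A and CCND1 were above it with 0.16 and 0.42. LEFTY1 and LEFTY2 were not well above background on either array.

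CDH1, the gene of E-cadherin, had a difference of 0.88, but its level of -3.02 lay within the mock arrays at -3.95, -3.79, -2.95 and -3.73. Among the genes of its repressors, SNAI2 had -0.30, TWIST1 0.00, TCF3 0.14 and SNAI1 0.31. ZEB1 and ZEB2 have no value in the normalized table, because both were well above background on all 4 mock arrays and not on the miR-520f array. Against mock sample 8 this gives a bound of at least 2.08-fold lower for ZEB1 and at least 1.37-fold lower for ZEB2. On the miR-520f array ZEB1 measured -5.27 and ZEB2 -3.80, and the lowest signal well above background was -5.18. Each bound uses the higher of the gene's own signal and that lowest one, so that of ZEB2 rests on its own signal. Neither ZEB signal counted as well above background, so no size beyond these bounds is given. Of the other genes that the study followed by qRT-PCR, MTPN, the gene of myotrophin, had -0.61, the Mediator subunit gene MED8 -0.26, GAPDH -0.06, HINT1 0.04 and FERMT2 0.66. RAB31 has no value in the normalized table, since neither of its probes was well above background on the miR-520f array. The same bound was 1.38-fold lower for a RAB31 probe but 0.808-fold, thus not lower, for its other probe. No fold is therefore given for this gene.

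Signals of the TGF-beta superfamily reach SMAD factors through pairs of type I and type II receptors. Of 9 receptor genes measured, 4 were higher and 1 lower, with a median of 0.55, and the median of the mock pair was 0.13. After normexp background correction of the scanner signal the median of these receptors was 0.03. ACVR2B had 1.54 on its brightest probe and TGFBR2 -1.18, so type II receptors stood at both ends of the list. TGFBR3, the co-receptor betaglycan, measured -2.59 against -3.63, -3.60, -3.46 and -4.14, a difference of 1.05, and ACVR2A and BMPR1A had 0.61 and 0.55. Among 18 SMADs and target genes, 1 was lower and 3 were higher. ID1, an inhibitor of bHLH factors, measured 6.33 against 5.13, 5.11, 5.11 and 5.30, a difference of 1.22, and SMAD7 and SMAD1 had 0.83 and 0.82. The ID1 arrays of mock differed by less than 0.2.

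In the Hippo pathway, a kinase chain that restrains the coactivator YAP1, 2 of 14 genes were lower and 0 higher. STK4, a kinase at the top of the chain, measured -1.86 against -0.55, -0.47, -0.08 and -0.40, a difference of -1.39, whereas its further probe showed 0.23. The other lower gene was LATS2 with -0.50, at the step itself, and -0.16 on its further probe. WWTR1, a paralogue of YAP1, had the highest value of 0.44, while its further probes ranged from -1.07 to 0.38. Of 12 YAP1 target genes NT5E was lower with -0.52, and AMOTL2 had 0.62 within the mock range.

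The mitosis genes leaned to lower values. Of 29 such genes, 28 had a difference below 0, 19 lay below all 4 mock arrays, 5 were lower by the step and 0 higher. Over all 10797 genes 5554 had a difference below 0 and 2972 lay below all 4 mock arrays. The median of the mitosis genes was -0.24, and that of the mock pair was 0.13. PRC1, which bundles microtubules in the spindle midzone, measured 1.52 against 3.19, 3.21, 3.15 and 3.07, a difference of -1.72. PBK, a mitotic kinase, measured 1.12 against 2.76, 2.74, 3.37 and 3.47, a difference of -1.65. CENPF, a kinetochore protein, had -1.26 on the probe read for the list and -1.71 on the other, and KIF23, a motor of the central spindle, had -1.08. CCNB1, the gene of cyclin B1, had -0.54, while CDK1 had the highest value of the list with 0.05. Most other genes of the list had small differences, from -0.44 to -0.01.

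Among 23 regulators of G1, 4 genes were lower and 3 higher. E2F5, an E2F factor that binds pocket proteins, measured 0.83 against -0.74, -0.76, -0.50 and -0.47, a difference of 1.56, and CCNE1, the gene of cyclin E1, had 1.08. The pocket protein gene RBL1 measured -2.32 against -1.32, -1.33, -0.78 and -0.40, a difference of -0.98. E2F2 had -0.94 and the CDK inhibitors CDKN2C and CDKN2D -0.74 and -0.60. Of 29 S phase genes 2 were lower and 1 higher, with a median of 0.02. LIG1, the DNA ligase of replication, had -1.02 and lay below mock arrays at 2.52, 2.48, 2.29 and 2.32, and the highest value, 0.77 for the clamp loader subunit RFC3, came from an uneven spot.

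Of 32 mesenchymal and matrix genes, 7 (21.9%) were higher and 0 lower, although the median was -0.04 and 18 had a difference below 0. COL1A1, a chain of type I collagen, measured -0.95 against -3.34, -3.32, -3.47 and -2.92, a difference of 2.37. MMP1, a collagenase, measured 0.75 against -1.12, -1.05, -0.70 and -0.12, a difference of 1.78. Both lay above every mock array. The matrix protein gene SPARC had 0.91, the membrane protease gene MMP14 0.75, the integrin genes ITGA2 and ITGA5 0.65 and 0.61, and COL4A1 0.61, whereas CDH2, the gene of N-cadherin, had the lowest value of -0.42. COL1A1 also serves as a marker of fibroblasts. Of the markers of other cells, PECAM1 of endothelium had 0.49 on an uneven spot and PTPRC was below background on all 5 arrays, and their part in the matrix values was not tested.

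Among 26 epithelial junction genes 3 were higher and 2 lower, with a median of 0.17. CLDN1, a claudin of tight junctions, measured -0.95 against -1.79, -1.96, -1.75 and -2.07, a difference of 1.00, KRT18 had 0.77 and the junctional adhesion molecule gene F11R 0.53. ESRP2, an epithelial splicing factor, had -0.74 and KRT14 -0.60. Of 8 measured genes of the ERBB receptors and their ligands, 2 were higher and 0 lower. HBEGF, the gene of a heparin-binding ligand, had 0.82, and LRIG1, which restrains ERBB receptors, had 0.51, while ERBB2 was lowest with -0.01.

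In the list of immediate early and MAPK feedback genes, 8 of 25 members (32.0%) were higher and 2 lower, with a median of 0.32 against 0.12 for the mock pair. EGR2 led this list. DUSP2, a phosphatase of MAP kinases, measured -2.10 against -2.70, -3.07, -2.68 and -2.20, a difference of 0.98, and DUSP5 and DUSP6 had 0.64 and 0.58. SPRY1 and SPRY4, inhibitors of receptor tyrosine kinase signals, had 0.82 and 0.58, IER2 0.66 and MAP3K14 0.66. The AP-1 subunits FOSL1 and JUN were the lower members with -0.66 and -0.54, so the list did not have a common sign.

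Innate immune genes were compared with care, because the mock arrays of set 3 differed in them. Of 33 interferon response genes, 4 were higher and 1 lower, with a median of 0.31, but the mock pair itself had a median of -0.37. IFIT1 measured 3.94 against 3.11, 3.15, 3.55 and 3.90, a difference of 0.78, and OAS2 had 0.70. IFIT2 had the largest value, 1.02, within the mock range, and IRF9, a subunit of the interferon-activated factor, had -0.61. Of 19 NF-kappaB and cytokine genes, 5 were lower and 0 higher, and the mock pair had a median of -0.99. CXCL8, a chemokine, measured -2.94 against -1.49, -1.47, -0.89 and 1.63, a difference of -1.43, with mock arrays that spanned over 3 on the log2 scale. RELA, a subunit of NF-kappaB, measured -0.13 against 0.82, 0.93, 0.22 and 0.29, a difference of -1.07. The cytokine genes LIF and IL11 had -0.68 and -0.60 and CXCL3 -0.51, while CXCL1 had the highest value, 0.79, within the mock range.

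Of 13 genes of NKG2D ligands and HLA class I, which present a cell to killer cells and T cells, 12 had a difference below 0 and 9 lay below all mock arrays, where 5554 and 2972 of all 10797 genes did. The median was -0.29, and by the step of 0.5 only the butyrophilin gene BTN3A2 was lower, with -1.01 and -0.99 on its further probe. MICB had the highest value, 0.08, on the probe read for the list, and -1.01 on its further probe.

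In membrane traffic, 4 of 23 COPII and Golgi genes were lower and 0 higher, with a median of -0.17. VPS35, a retromer subunit, and ARF1, a GTPase that recruits coats, both had -0.74, SEC31B had -0.62 and SAR1B, the GTPase of the COPII coat, -0.55, while GOLGA7 was highest with 0.43. Of 30 RAB small GTPases 3 were lower and 1 higher. RAB3B, which acts in regulated secretion, measured -0.45 against 1.04, 1.05, 1.15 and 1.96, a difference of -1.51, with -1.92 to -1.20 on its further probes. RAB22A had -0.91, RAB32 -0.71 and RAB3D 0.60. Of 11 measured mucin-type glycosyltransferases, GALNT1 was higher with 0.88 and GALNT4 lower with -0.61, and the list had a median of -0.27. GALNT3 was read in this list on the probe with -0.50, within the mock range, and not on the probe with -2.45. Among 28 ubiquitin-conjugating enzymes 4 were lower, led by UBE2N with -0.74, and 1 was higher, UBE2E1 with 0.96.

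Genes of cell death included 2 higher and 1 lower member of 27. BMF, a BH3-only activator of cell death, measured -0.93 against -2.54, -2.55, -3.10 and -3.37, a difference of 1.62, and BAK1, a pore-forming effector, had 1.02. MCL1, an inhibitor of both, had -0.56 on its brightest probe, and its further probes ranged from -1.43 to -0.01. Of 13 targets of p53, a protein that PC-3 cells are known to lack, 3 were higher, led by TP53INP1 with 0.96, and BAX was lowest with -0.54 within the mock range. The 30 autophagy and lysosome genes had 0 members past the step in either direction, a median of -0.10 and a range from -0.71 (CD68) to 0.25 (ATG4B). The 28 cholesterol and fatty acid synthesis genes had 2 lower, led by HSD17B7 with -0.63, and 0 higher, with a median of -0.13. Of 27 genes of ATF4 and endoplasmic reticulum stress, 2 were lower, led by HERPUD1 with -0.55, and 1 was higher, and SLC7A11 had 0.93 within the mock range. Among 22 hypoxia and glycolysis genes 2 were higher and 0 lower, and EGLN1, an oxygen sensor, had 0.61 and PFKP -0.38.

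Of 34 chromatin regulators 4 were lower and 3 higher. MBD2 was lowest, and DNMT3B, a DNA methyltransferase, measured 0.78 against -0.39, -0.39, 0.14 and 0.23, a difference of 1.15. In the small RNA machinery 1 of 20 genes was lower and 1 higher. DCP2, the decapping enzyme of mRNA decay, measured 1.32 against -0.57, -0.58, -0.28 and 0.02, a difference of 1.87, while its further probe showed 0.29, and DGCR8, the partner of Drosha, had -0.51 within the mock range. Of 12 prostate lineage genes 1 was lower, the basal keratin gene KRT14, and SLC45A3 had the highest value with 0.38 on an uneven spot.

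The 15 housekeeping genes had a median of 0.02, with TBP highest at 0.33, and 1 of them stood apart. HPRT1, an enzyme of purine salvage that is often used as a reference gene, measured 1.51 against 2.86, 2.91, 3.62 and 3.87, a difference of -1.44 on an even spot. Under dsEcad-640, miR-302a, miR-372 and miR-520c the same probe had 0.07, -0.11, -0.03 and -0.02, and under miR-373 it had -0.01.

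**Figure D4:**
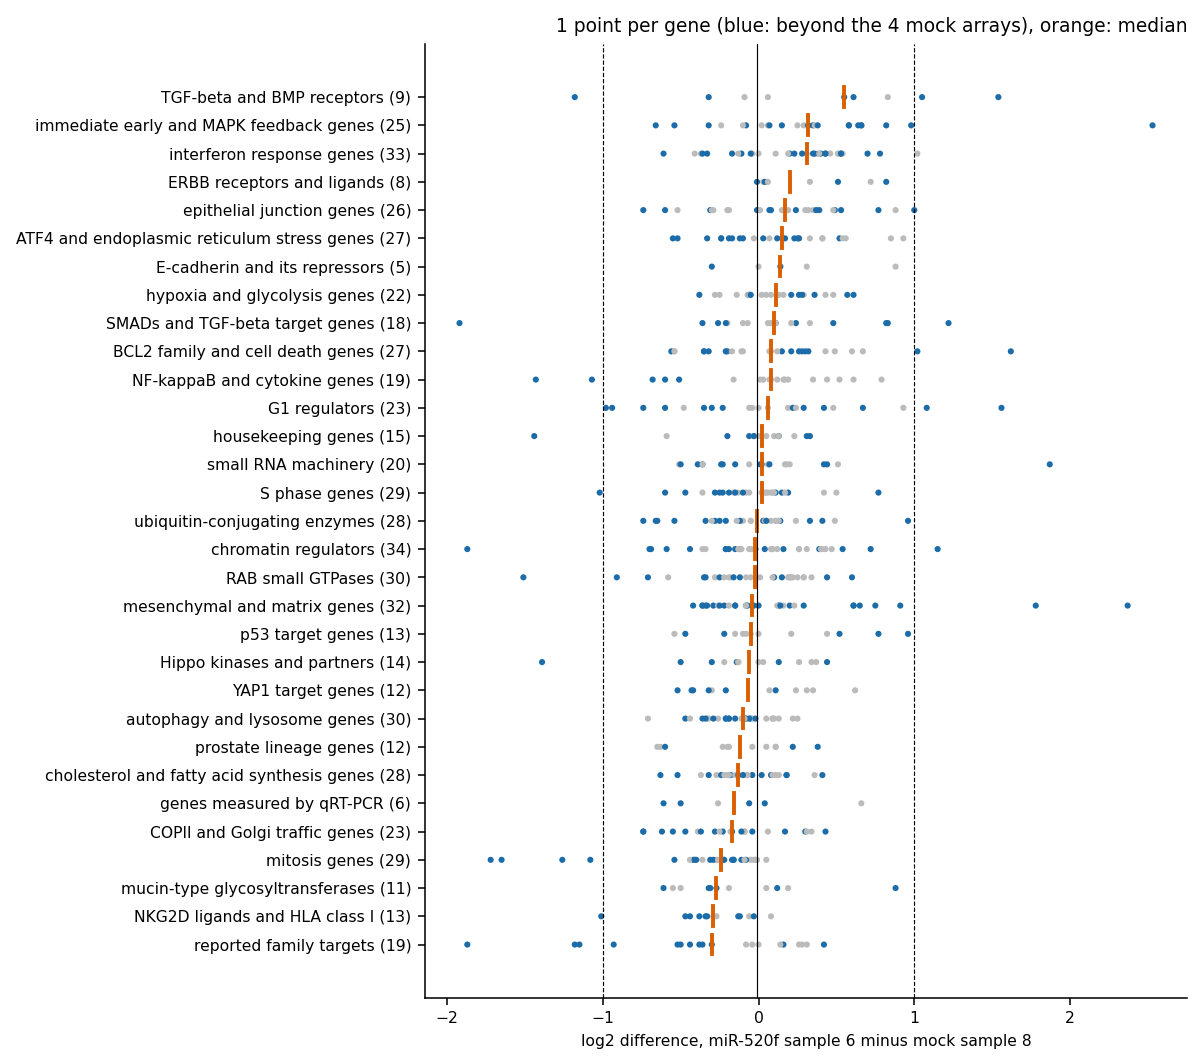
Log2 difference of miR-520f sample 6 minus mock sample 8 (horizontal axis) for the genes of 31 lists, with the number of measured genes in brackets and the lists ordered by median. Blue points lie beyond all 4 mock arrays, grey points within their range, orange lines are medians and dashed lines mark 2-fold. The medians run from -0.30 for the reported family targets to 0.55 for the TGF-beta and BMP receptors, whose median was 0.03 after normexp correction, and 28 of 29 mitosis genes lie below 0.

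The direction of the called probes was then looked up under 4 duplexes whose own mock array is not sample 8. These were dsEcad-640 and miR-302a, read against mock sample 1, miR-520c, read against mock sample 11, and the set 3 array of miR-372, read against mock sample 9. Of 233 lower probes, 214 (91.8%) had a difference below 0 under dsEcad-640, 200 (85.8%) under miR-302a, 205 of 232 (88.4%) under miR-372 and 207 of 232 (89.2%) under miR-520c. Over all probes these shares were 48.3%, 48.0%, 49.6% and 50%. Under all 4 duplexes 172 of 232 (74.1%) were below 0, against 22.8% of all probes, and 17 were at least 2-fold lower under all 4. The 4 duplexes share mock arrays in part, so that these counts are not independent of each other, and most duplexes have 1 array each. Mock samples 1, 9 and 11 also took part in the call rule, which favours the same direction under these 4 duplexes. How much of the shares comes from this was not tested.

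Of the higher probes, 182 of 283 (64.3%) were above 0 under all 4 duplexes, against 24.9% of all probes, and 16 were at least 2-fold higher under all 4. With even spots alone the count was 157 of 199. The mock arrays of these duplexes took part in the call rule here too, which favours the same direction. The share of uneven spots was 13.7% in the 182 probes with 4 duplexes above 0, and it was 76.5% in the 17 probes that had none of the 4 above 0. Higher probes without a like direction under the other duplexes were therefore mostly probes with uneven spots.

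The shift of the seed was looked at from 2 sides, each as a description. First, 57 probes of 39 named genes were at least 2-fold lower under all 4 other duplexes, a choice that used no set 2 array. With miR-520f 55 of them were below 0, 52 lay below all 4 mock arrays, 17 were at least 2-fold lower and 17 differed by less than 0.5. Over all 21462 probes 1.15% were at least 2-fold lower. Of all 10797 genes, at 1 probe each, 5554 were below 0 and 2972 below all 4 mock arrays. The median of the 57 probes was -0.71 with miR-520f and -1.57, -1.27, -1.42 and -1.81 with dsEcad-640, miR-302a, miR-372 and miR-520c. Of the 57, 46 had a smaller difference with miR-520f than with any of the 4. The values of these 4 duplexes chose the probes, which favours large values for them, and no test was made. Their mock arrays took part in that choice as well, which favours a miR-520f level below them. miR-373, whose seed is not shifted, was read on the same slide against the same mock array. It too had smaller differences than the 4 duplexes for some genes of this set, such as TCEAL1 (-0.89), UBE2B (-0.55) and GSTM1 (-0.92). For BDKRB1 (-1.36) and GALNT3 (-2.00) its differences were larger than theirs. The shift of the seed and the slide were not tested as sources of the smaller differences.

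Genes with small differences in this set include regulators of autophagy, secretion and detoxification. DRAM1, an inducer of autophagy, measured 0.37 against 0.75, 0.68, 1.02 and 1.30, a difference of -0.32 with miR-520f and -2.00, -1.63, -1.85 and -2.37 with the 4 others in the same order. SEC23A, a subunit of the COPII coat, had -0.42 and -0.47 on its 2 probes, against -1.80 to -1.34 with the others. CMPK1, a pyrimidine nucleotide kinase, had -0.48 against -1.89, -1.59, -1.95 and -2.74. In these genes the miR-520f array still lay below the mock arrays, but by less than 0.5. The glutathione transferase gene GSTM3 had -0.36 and -0.42, TCEAL1 -0.29, the kinin receptor gene BDKRB1 -0.38 and the lipid phosphatase gene MTMR4 -0.41. At the other end, 3 of the 57 probes had a larger difference with miR-520f than with any of the others, among them probes of GALNT3 and CYB5R4. GALNT3 had -2.45 against -1.75 to -1.55 and CYB5R4 -1.98 against -1.84 to -1.08, and SAMTOR with -2.22 and MBD2 with -1.87 lay inside the range of the others, at -2.52 to -1.27 and -2.03 to -1.01.

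Of 26 probes that were at least 2-fold higher under all 4 others, 25 were above 0 with miR-520f, 16 at least 2-fold, and the median was 1.20 against 1.56, 1.28, 1.38 and 1.51. Over all 21462 probes 1.45% were at least 2-fold higher, and 5232 of 10797 genes were above 0. The 4 duplexes and their mock arrays chose these probes too, which favours large values for them. The genes of the 26 probes include ACVR2B, ANKRD46, DCP2, COL5A2, a collagen chain with 1.74, ARID3B, a DNA-binding factor with 1.54, and LY6K, a surface protein with 1.45 and 1.49. PDLIM2, an adaptor protein with PDZ and LIM domains, had the smallest value of the named genes, 0.16 within the mock range, against 1.47, 1.66, 1.42 and 1.59.

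Second, 68 of 232 lower probes (29.3%) had differences under 0.5 in size under all 4 other duplexes, where 64.2% of all probes did. Of these, 67 had even spots, and they stand for 48 named genes. They were picked after their values were seen, and a single array of each duplex gives no error for the contrast. GLTP, a carrier of glycolipids, measured -0.25 against 1.42, 1.38, 1.04 and 0.96, a difference of -1.66, with -0.36, -0.19, -0.42 and -0.37 under the others. CMTR1, which methylates the cap of mRNA, measured -1.43 against 0.15, 0.21, 0.20 and -0.30, a difference of -1.64, with -0.20 to 0.32 under the others. ARPC1B, a subunit of the Arp2/3 complex that branches actin, measured 3.45 against 4.54 to 4.86, a difference of -1.41. In all 3 genes the mock arrays of the 3 slides lay close together and the miR-520f array below them.

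TMX1, a redox protein of the endoplasmic reticulum, measured 3.93 against 5.32, 5.34, 5.74 and 6.01, and AAGAB, an adaptor in clathrin traffic, 1.25 against 2.61, 2.59, 2.92 and 2.97, with differences of -1.41 and -1.37. MFN2, which fuses mitochondria, had -1.28, SMDT1, a subunit of the mitochondrial calcium uniporter, -1.25, and COX7B, a subunit of cytochrome c oxidase, -1.05 with -0.94 on its further probe. The GTPase gene ARF5 had -1.30 and -1.29, the phenylalanine tRNA synthetase gene FARSB -1.07 and -1.06, and CXXC5, a zinc finger protein, -1.01 and -1.13, so 2 probes of these genes had like values. In other genes the probes disagreed. SPTLC1, of sphingolipid synthesis, had -1.52 and 0.14, LAMP1, a lysosomal membrane protein, -1.34 and -0.06, ASB8 -1.49 and -0.29, and the zinc transporter gene SLC39A3 -1.46, -1.42 and 0.13. HPRT1, LIG1 and the CENPF probe with -1.71 also belong to this set.

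Of the 76 higher probes within 0.5 under the other duplexes, 32 had even spots, and they stand for 17 named genes. NAPRT, an enzyme of NAD synthesis, had 1.98, but -0.13 on its further probe, and ANP32D and ANP32A, close copies of each other, had 1.79 and 1.67. FGFR1, a receptor of fibroblast growth factors, had 1.44 and -0.33 to -0.01 on its further probes. LTB, a cytokine of the tumour necrosis factor family, measured 2.42 against 1.14, 1.09, 0.89 and 0.66, a difference of 1.30, and ZHX2, a transcriptional repressor, -0.67 against -1.72, -1.96, -1.83 and -1.65, a difference of 1.28. AKT2, a kinase downstream of PI3 kinase, had 1.00 and 0.56 to 1.00 on its further probes. TGFBR3 and CLDN1 were in this set as well.

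miR-373 was hybridized on the same slide and is read against the same mock array, so its values are given beside those of miR-520f without a comparison. For TMEM14A, GALNT3, ADAM9, SAMTOR and CFL2 they were -0.68, -2.00, -0.73, -1.02 and -0.42, and for ACVR2B, EGR2 and MKX 1.22, 0.79 and 2.01. For NPR2 miR-373 had -2.18, where the shared mock spot was uneven. For GLTP, CMTR1 and ARPC1B it had -0.19, 0.16 and -0.07, and for DRAM1 and CMPK1 -1.74 and -1.36.

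The remaining members of the probe set have no difference in the normalized table. On the miR-520f array alone 424 probes were well above background, of which 420 could be given a bound. The bound was taken against the higher of 2 signals on mock sample 8, the probe's own and the lowest that was well above background. All 420 were at least 2-fold higher by that bound, but 384 of them (91.4%) had uneven spots. The direction is no result, since the probes were chosen for being well above background with miR-520f alone. The lowest signal well above background was -5.18 on the miR-520f array and -5.75 on mock sample 8. MGAT5B, a glycosyltransferase, had a signal of 10.23 on the miR-520f array and -6.62, -5.23, -7.65 and -7.72 on the mock arrays, at least 4.51e+04-fold higher by the bound, and on the 10 other arrays of the series it ranged from -7.72 to -2.89, with 3 of all 11 arrays well above background. The spot was even, but the value comes from this spot alone, and whether it is a defect of the spot was not tested. Further bounds, at least 39.6-fold for BTK, 23.7-fold for ZNF708 and 23.6-fold for GPR135, all came from uneven spots with pixel SDs of 26.9% to 55.8% of the mean signal.

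On mock sample 8 alone 5638 probes were well above background, and of 5588 with a bound, 729 (13.0%) were at least 2-fold lower with miR-520f. Here the choice of probes favours the lower direction. CYBRD1, an iron reductase of the cell surface, had -1.71, -1.74, -1.45 and -1.58 on the mock arrays and -5.23, not well above background, on the miR-520f array, at least 10.8-fold lower. CFAP263, a protein of cilia, and RNASE4, a secreted ribonuclease, were at least 6.27-fold and 5.53-fold lower, and all 4 mock arrays were well above background in these 3 genes. The spot of CFAP263 on the miR-520f array had a pixel SD of 30.4% of its mean signal. HPN, a membrane serine protease, and LBX2, a homeobox factor, had bounds of 7.97-fold and 7.11-fold that rest on an uneven spot of mock sample 8, and their levels with miR-520f lay within the mock range. A last 368 probes were well above background on both arrays without a value in the normalized table. In the scanner signal 1 of them was at least 2-fold lower 147 were at least 2-fold higher, and 41.6% of the 368 had uneven spots.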

How the data were processed

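RNA of PC-3 cells was labelled with Cy3 and hybridized to Agilent whole human genome arrays. The authors deposited the scanner output of Agilent Feature Extraction 10.5.1.1, an intensity per spot with the background subtracted and trends removed within the array, and a table of log2 values, whose normalization is not given in the sources used here. In that table quartiles are equal within a set and differ between sets. Probe coordinates are those of hg18.

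Differences were taken from the deposited log2 table within a slide. For levels across slides, outlier spots were dropped, repeated spots averaged, and the 75th percentile of each array subtracted from its log2 intensity (R 4.3.3, limma 3.58.1, Python 3.11.15, numpy 2.4.6, pandas 2.3.3). Accessions were matched to current gene symbols with RefSeq tables, which named 15130 of the 21462 probes (70.5%). The step of counting was tested on simulated data with 200 changed probes. The number of arrays limits the precision.

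Named genes are the 12 with the largest difference each way among probes beyond all mock arrays, the 5 with the largest bound each way, the lowest and the highest of each list, and all members of 3 short lists. Some genes that met this rule are not reported here. Members and lists were chosen with earlier results of these data known. The alternatives were the scanner signal, normexp correction with an offset of 50, quantile normalization, the mean of the mock arrays with and without each of them, other filters, and the mean of a gene's probes. Leaving out uneven spots, at 25% or 20%, the scanner signal of probes well above background on both arrays, normexp over the probes of the normalized table, and the 12 higher genes with even spots were added after seeing the data. A planned comparison by seed sites was not made, since transcript sequences were not analysed here.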

Additional observations from a re-analysis of the deposited data

Results flagged for a closer look

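On the 4 mock arrays, 2 of 59 named genes had 1 array that stood far from the 3 others. CFL2 had a log2 signal of 2.13 on mock sample 11 against 1.95 to 1.98 on the others, and its difference with miR-520f was far larger than that gap. INSL3 had -3.80 on mock sample 8 against -3.36 to -3.31, and mock sample 8 is the array from which its difference was taken. Chance alone marks about 1 in 20 such groups, so 2 of 59 is no more than chance gives.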

How the results depend on the processing

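No paired test was possible because miR-520f has 1 array, which is set against 1 mock array of the same slide. The counts of at least 2-fold lower, at least 2-fold higher, lower beyond all mock arrays and higher beyond all mock arrays were 247, 312, 233 and 291. They became 2292, 888, 1253 and 860 with the scanner signal, 1815, 968, 1378 and 916 with quantile normalization and 1279, 1861, 1263 and 1190 against the mean of the 4 mock arrays, all over 27892 probes that include those measured on 1 array alone. Without each mock array in turn they ranged from 1228 to 1444, from 1174 to 2774, from 1213 to 1424 and from 1034 to 1596, and the count at least 2-fold higher was 2744 and 2774 without samples 1 and 8 and 1212 and 1174 without samples 9 and 11. Without a filter on background they were 2359, 7671, 1269 and 6938 over 41000 probes. With the scanner signal over probes well above background on both arrays they were 261, 455, 245 and 432. With normexp correction 103 and 95 probes were lower over the 27892, and over the 21462 of the normalized table the counts were 95, 115, 92 and 101, and 92 of the 233 lower and 98 of the 291 higher probes kept their call, and the cause was not tested. With uneven spots left out at 20%, 181 and 168 probes were higher. The 24 genes with the largest differences kept their sign under all 11 alternatives, 20 of them at 2-fold or more. These genes were chosen for large differences, and every alternative used the same miR-520f spots. A defect of a spot would therefore keep its sign as well, and genes with uneven spots such as INSL3 did so. EGR2, MKX and TSPAN33 were at 0.92, 0.49 and 0.92 with normexp correction, and NPR2 moved to -0.32 against the mean of the 3 mock arrays other than sample 8. Of 31 list medians, 18 kept their sign throughout, and the largest shift, 0.52, was that of the TGF-beta and BMP receptors, from 0.55 to 0.03 with normexp correction.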
